A study of Mus musculus with 8 samples.

Results

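The sodium pump subunits considered here are 4 genes named by symbol, the beta subunits Atp1b1, Atp1b2 and Atp1b3 and the regulatory subunit Fxyd5. Only 1 of the 4, Atp1b1 (ENSMUSG00000026576), is among the 1933 gene rows that the 8 count tables share, and the other 3 were not analysed here. The 1830 shared rows that have a symbol all lie on chromosome 1 in the annotation used for symbols, so what follows describes Atp1b1 beside other genes of that chromosome. The set was selected on measured differences between knockout and floxed libraries in these same tables. The values of Atp1b1 in that comparison are therefore given as a description, and no test is read from them.

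The libraries came from hepatic stellate cells, which store vitamin A in the healthy liver and lay down scar matrix in fibrosis, isolated from male mice with diet-induced steatohepatitis (MASH). All mice received a Western diet (21% fat, 20% protein and 50% carbohydrate) from 4 weeks of age for 20 weeks and were killed in week 24. The groups were AREL1fl/fl, in which Arel1 is floxed (called floxed below, 4 libraries), and AREL1HSC-KO, labelled as a stellate cell knockout of the same gene (KO, 4 libraries). Arel1 encodes an E3 ubiquitin ligase. The labels do not name the Cre line or its promoter, do not say whether each library is a separate mouse, and carry a different digit in the genotype field of 3 KO libraries, for which the title was followed. The deposited tables are named with other words than the labels, ctrl for floxed and Sg for KO, and the labels were followed there too. If libraries share an animal, the errors below measure only technical spread. Neither Arel1 nor any of the 20 listed stellate cell markers is in the rows, so the knockout and the cell type were not checked.

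The sodium pump, or Na,K-ATPase, exports sodium and imports potassium against their gradients at the cost of ATP. Its catalytic alpha subunit carries the ions, its glycosylated beta subunit brings alpha through the endoplasmic reticulum to the cell surface and tunes potassium affinity, and a small FXYD protein adjusts the kinetics. Atp1b1 encodes beta 1, the most widespread beta isoform, which also acts as an adhesion molecule between neighbouring epithelial cells. In any cell the gradient made by the pump drives the sodium-coupled uptake of nutrients and the removal of calcium and protons.

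Atp1b1 lies on the minus strand of chromosome 1 at chr1:164437109-164458355 (GRCm38, GENCODE M21), and the 250 bases before its start are shown because this is the promoter-side sequence of the gene whose level differed (chr1:164458356-164458605, minus strand, RefSeq, GRCm38.p6, read 5′ to 3′). Capitals mark the motifs searched and found on either strand.
Atp1b1: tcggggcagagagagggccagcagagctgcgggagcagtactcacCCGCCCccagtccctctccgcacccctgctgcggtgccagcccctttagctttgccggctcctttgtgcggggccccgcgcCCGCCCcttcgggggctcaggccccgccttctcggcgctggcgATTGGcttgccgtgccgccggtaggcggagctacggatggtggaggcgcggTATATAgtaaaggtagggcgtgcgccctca
The letters TATATA begin 30 bases before the start, at the usual place of a TATA box. CCAAT stands on the opposite strand 81 bases before the start, and the GC box GGGCGG occurs 2 times on the opposite strand, 205 and 124 bases before it. No motif overlaps another, and the cyclic AMP response element TGACGTCA is not in this window. Of 32851 RefSeq promoter windows of the same length, 5.25% hold TATATA, 33.8% hold CCAAT, 32.7% hold GGGCGG and 1.55% hold TGACGTCA on either strand. The GC content of the window is 70.4%, against a median of 52.4% over all windows. These matches describe letters and show neither binding nor a cause.

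Atp1b1 was higher in every KO library than in any floxed library. In floxed, replicates 1 to 4 stood at 31.75, 33.86, 31.22 and 34.57 CPM, the reads of the gene per 1000000 gene-assigned reads after TMM scaling. In KO, replicates 1 to 4 stood at 42.54, 45.54, 45.64 and 43.76 CPM. The lowest KO library, replicate 1, lay 7.97 CPM above the highest floxed library, replicate 4, so the groups did not overlap. The means were 32.85 ± 1.62 CPM in floxed and 44.37 ± 1.5 CPM in KO (SD, n = 4 each), a difference of 1.35-fold (log2 fold change 0.43, SE 0.044).

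The level rested on 540 to 617 reads per floxed library and 853 to 1169 per KO library. Counting error alone gives an SD of 1.278 to 1.407 CPM in a floxed library and 1.319 to 1.498 CPM in a KO library, close to the SD seen between libraries. The spread of Atp1b1 within each genotype was therefore little more than that of counting. In bulk RNA, more transcript per cell and more cells that carry the transcript cannot be told apart.

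The edgeR quasi-likelihood fit across all 420 genes kept by the filter on low counts placed Atp1b1 past the threshold (adjusted p under 0.05). The 1 member with a row was thus called, where 37.6% of all tested genes were called and 18.3% were called as higher in KO. Groups did not overlap in 31.4% of tested genes, and in 14.8% every KO library was the higher. As Atp1b1 was chosen with this contrast known, nothing is read from that count, nor from the rank and medians that follow. By log2 fold change it was 19th of 420, and among the 321 genes with a mean of at least 5 CPM only 3 had a higher value. Its log2 fold change stands against a median of 0.0034 over all tested genes and a median absolute value of 0.194 over the 158 called genes.

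**Figure D1:**
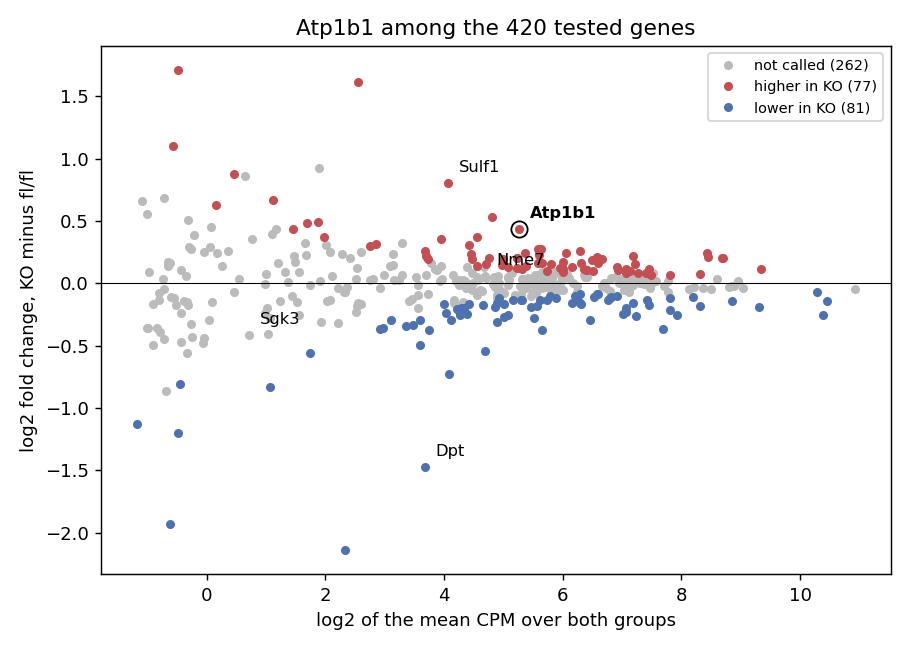
Each point is 1 of the 420 tested genes, with the log2 of its mean CPM over both groups on the x axis and its log2 fold change (KO minus floxed) on the y axis; red genes were higher, blue genes lower and grey genes not called. Atp1b1 (circled, 0.43) lies at the upper edge of the genes of its level, while Nme7, which overlaps it, and the kinase gene Sgk3 are grey.

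Per length, Atp1b1 belonged to the more abundant transcripts of these rows. Over the 2506 exonic bases that it does not share with another gene, it stood at 13.11 CPM per kb in floxed and 17.71 CPM per kb in KO. The medians over the 373 tested protein-coding genes with at least 200 such bases were 6.541 and 6.442 CPM per kb. Atp1b1 ranked 108th of these genes in floxed and 82nd in KO by that level.

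Part of the Atp1b1 message is missing from the counts because the gene meets its neighbour tail to tail. Nme7, a nucleoside diphosphate kinase family member of the gamma-tubulin complex, runs on the plus strand at chr1:164304121-164437725 (GRCm38), and its last exons cover, in GENCODE M21, 575 bases of the 1431-base last exon of Atp1b1. Reads there are assigned to neither gene in the either-strand column. Each strand column does assign them, and the 2 strand columns summed minus the either-strand column therefore gives the number of such reads. For Atp1b1 they numbered 179, 165, 161 and 168 in floxed replicates 1 to 4 and 275, 318, 258 and 259 in KO replicates 1 to 4. They made up 22.24% ± 0.597 of all its reads in floxed and 21.78% ± 1.04 in KO (SD, n = 4).

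The same reads can be counted from the Nme7 side. Nme7 shares its other end with Blzf1, which encodes a Golgi matrix protein. The shared reads of Nme7 minus those of Blzf1 equalled the shared reads of Atp1b1 exactly in 7 of the 8 libraries and differed by 1 read in floxed replicate 4. The reads left out of the Atp1b1 count are thus those that fall on Nme7 as well.

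The shared reads were higher in KO by about as much as the reads of Atp1b1 alone. They stood at 9.211, 9.404, 9.308 and 9.615 CPM in floxed and at 11.25, 12.39, 12.53 and 13.29 CPM in KO, with no overlap between the groups. Their means, 9.385 ± 0.173 and 12.36 ± 0.841 CPM (SD, n = 4), differed 1.32-fold. Nme7 outside the overlap stood at 25.34 ± 0.819 CPM in floxed and 26.39 ± 0.293 CPM in KO, a difference of 1.04-fold that did not pass the test (log2 fold change 0.059, SE 0.049, edgeR adjusted p = 0.374), and its groups overlapped. Nme7 was called with reverse-strand counts (log2 fold change 0.20, edgeR adjusted p = 0.00946) and when both strand columns were summed (0.14, adjusted p = 0.00897), settings that hand it shared reads. Forward-strand counts do so too and gave 0.10 (adjusted p = 0.207). Its adjusted p ranged from 0.00897 to 0.57 over the alternatives. The ratio of Atp1b1 to Nme7 reads outside the overlap was 1.187 to 1.411 in the floxed libraries and 1.6 to 1.753 in the KO libraries. With shared reads included, Atp1b1 stood at 42.23 ± 1.77 and 56.73 ± 2.02 CPM (1.34-fold).

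**Figure D2:**
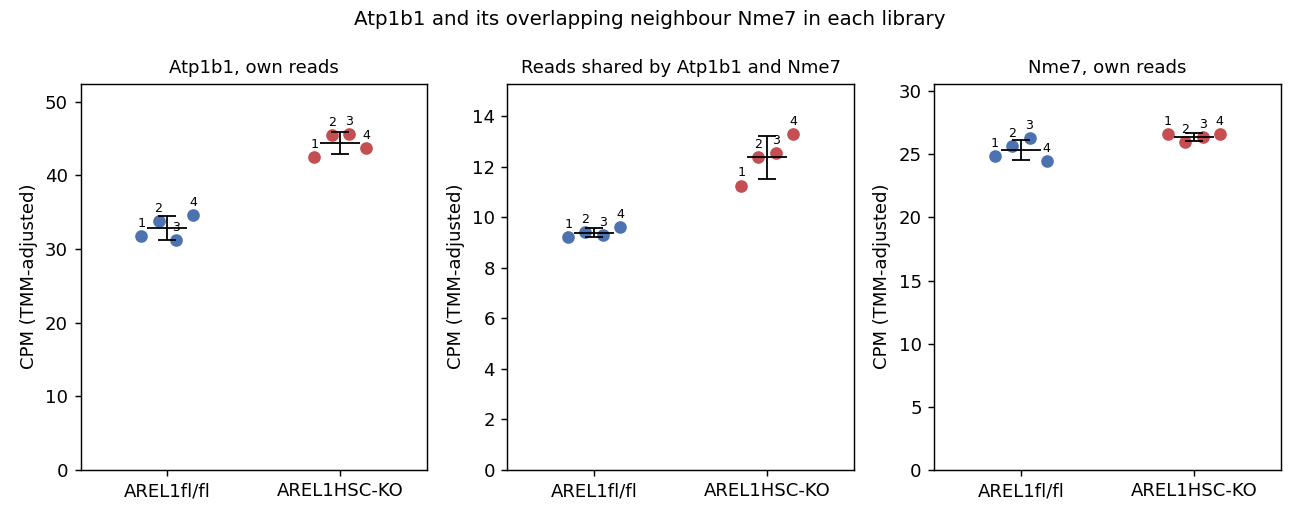
CPM in each library (points numbered by replicate; bars are mean ± SD, n = 4) for reads of Atp1b1 alone, reads that Atp1b1 and Nme7 share, and reads of Nme7 alone, each on its own axis from 0. The groups separate for Atp1b1 (at most 34.57 in floxed, at least 42.54 in KO) and for the shared reads, and they overlap for Nme7.

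Reads of Atp1b1 fell on both strands about equally, although the kit is named as stranded. The reverse column held 50.17% ± 1.25 of its strand-assigned reads in floxed and 48.52% ± 0.183 in KO (SD, n = 4). Over all shared rows the ratio of reverse to forward reads was 0.9849 to 1.019 per library, so the even split is not particular to Atp1b1. The strand columns therefore cannot separate the Atp1b1 message from that of Nme7. Taken alone, forward-strand counts gave a log2 fold change of 0.48 (SE 0.052) and reverse-strand counts one of 0.37 (SE 0.055). Each column alone holds only part of the reads, and both SEs exceed the 0.044 of either-strand counts. Some calls of other genes are lost below with 1 strand column, and the reason was not tested.

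**Figure D3:**
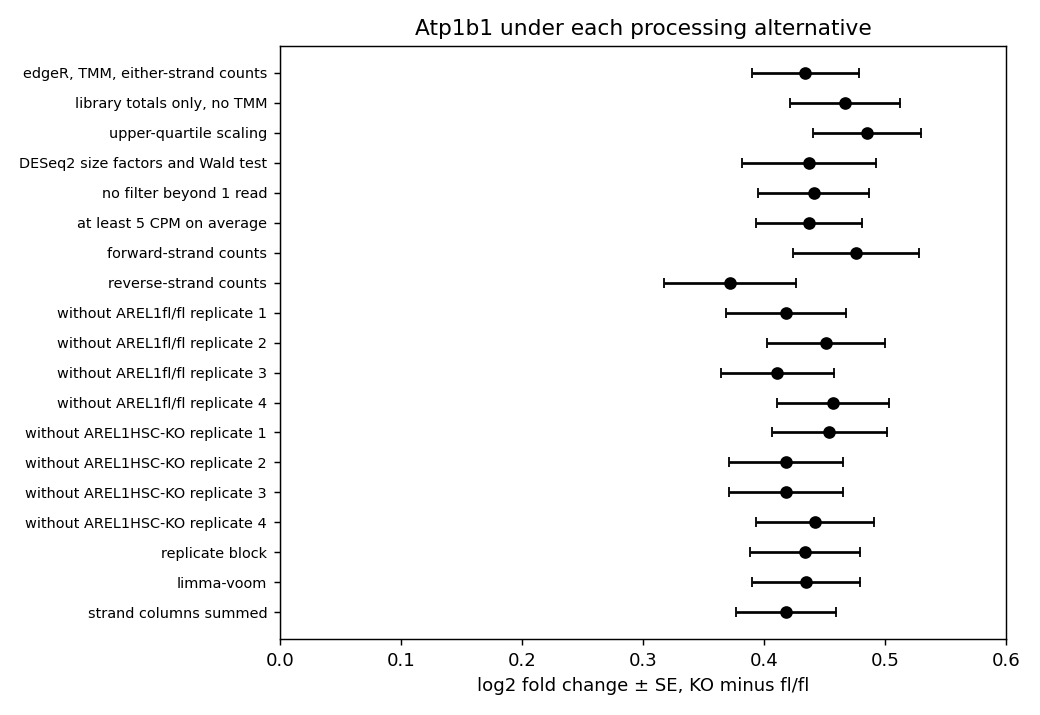
Log2 fold change of Atp1b1 (KO minus floxed, x axis, bars are SE) under the fit described and under each processing alternative (y axis). All values lie between 0.37, with reverse-strand counts, and 0.485, with upper-quartile scaling.

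The tested chromosomal neighbours of Atp1b1 differed in both directions or did not pass the test. Of 38 gene rows within 1 Mb on either side, 13 others passed the filter on low counts. Of these, 1 rose, 2 fell and 10 did not pass the test, which makes 23.1% called, beside 37.6% of all tested genes. With 13 genes, nothing particular to the neighbours is read from that share. Their median log2 fold change was -0.014, near that of all tested genes (0.0034). The 10 that did not pass had log2 fold changes between -0.15 and 0.17. The 3 that passed are named outside the rule for named genes, with their values known.

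Blzf1, the next gene after Nme7, rose by 9.74% from 32.3 ± 0.51 to 35.46 ± 0.816 CPM (SD, n = 4, edgeR adjusted p = 0.0136, 0.00144 to 0.614 over the alternatives). Its call was lost with reverse-strand counts (log2 fold change 0.045) and kept with forward-strand counts (0.20, edgeR adjusted p = 0.0074). Dpt, which encodes the matrix protein dermatopontin and begins 338.3 kb from the start of Atp1b1, fell by 63.9%, with 18.75 ± 2.78 CPM in floxed and 6.762 ± 0.0922 CPM in KO libraries (SE of the log2 fold change of -1.47 was 0.094, edgeR adjusted p = 4.21e-11). No other tested gene lies between Atp1b1 and Dpt, and the pair differed in opposite directions. Tiprl, a regulator of PP2A-type phosphatases, fell by 7.11% (log2 fold change -0.11, SE 0.033, edgeR adjusted p = 0.0121, 0.00169 to 0.201 over the alternatives). Its call was lost without floxed replicate 2 (-0.093, adjusted p = 0.0539), without KO replicate 1 (-0.091, 0.0592), with reverse-strand counts, with upper-quartile scaling and with library totals alone.

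**Figure D4:**
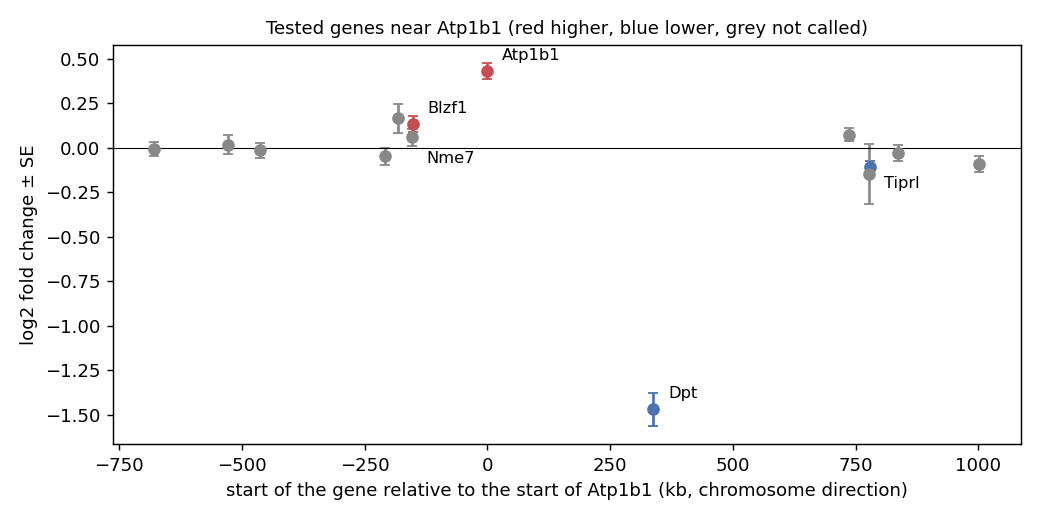
Log2 fold change (KO minus floxed, bars are SE) of the 14 tested genes near Atp1b1 against the distance of their starts from the start of Atp1b1 in kb, in chromosome direction. Most points lie near 0, Atp1b1 stands at 0.43 and Dpt at -1.47.

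Few other genes of the pump and its surroundings could be read. The lists of pump and ion transport genes hold 104 genes beside the 4 subunits: the alpha subunits, the other beta and FXYD subunits, other P-type ATPases, transporters that use or balance the sodium gradient, regulatory kinases and ligases, and protein partners of the pump. Only 1 of the 104 is in the rows. It is Sgk3, a kinase related to the SGK1 kinase that controls sodium transport, and it did not pass the test. Sgk3 had 42, 28, 41 and 23 reads in floxed and 34, 32, 28 and 32 reads in KO, and its groups overlapped. The levels were 1.861 ± 0.489 and 1.41 ± 0.167 CPM (SD, n = 4), and the log2 fold change of -0.41 had an SE of 0.21 (edgeR adjusted p = 0.121, 0.0233 to 0.597 over the alternatives). Without floxed replicate 4, the lowest of the floxed libraries, it was called as lower (log2 fold change -0.55, adjusted p = 0.0233). It lies below the rule for named genes and is given because it is the only listed gene found.

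Other membrane transport genes of these rows were taken by symbol (ATPases, solute carriers and ion channel families), a choice made after the rows were known. They number 18, and 6 passed the filter, Atp1b1 among them. The 12 others had at most 11 reads in any library. Of the 5 tested beside Atp1b1, 1 rose, 1 fell and 3 did not pass the test, with a median log2 fold change of -0.022. That is about the share of all tested genes that were called, 37.6%, and nothing particular to transport genes is read from it.

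The 2 that changed were Slc39a10 and Slc30a1. Slc39a10, a zinc importer of the cell surface, rose by 10% from 39.72 ± 2.68 to 43.69 ± 1.57 CPM (SD, n = 4), a log2 fold change of 0.14 with an SE of 0.045 (edgeR adjusted p = 0.0169, 0.000178 to 0.203 over the alternatives). This call was lost with reverse-strand counts and without floxed replicate 1 (log2 fold change 0.13, adjusted p = 0.0595), floxed replicate 2 (0.12, 0.0539), floxed replicate 3 (0.12, 0.0705) or KO replicate 2 (0.12, 0.0706). Slc30a1, the zinc exporter of the plasma membrane, fell by 15.4% from 17.73 ± 2.03 to 15.03 ± 0.59 CPM, a log2 fold change of -0.24 with an SE of 0.072 (edgeR adjusted p = 0.00912, 9.13e-06 to 0.0637 over the alternatives). Its call was lost without floxed replicate 1 (log2 fold change -0.20, adjusted p = 0.06) and with forward-strand counts (adjusted p = 0.0637). Reads that another gene's exons share made up 11.2% of those of Slc30a1. The 3 that did not pass were Slc35f5, the magnesium transporter Slc41a1 and the thiamine transporter Slc19a2, with log2 fold changes of 0.048, -0.022 and -0.047. Atp1b1 had the largest difference of the 6, but it was chosen with that difference known, so nothing is read from this.

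The genes most like Atp1b1 across the 8 libraries were Dyrk3, Sulf1 and Wdfy1, by Pearson's r of log2 CPM among 320 genes with a mean of at least 5 CPM. Dyrk3, a kinase that dissolves stress granules, had an r of 0.972, and Sulf1, which trims heparan sulfate at the cell surface, and Wdfy1, an endosomal adaptor, each had one of 0.97. The 8 points fall into 2 genotypes that differ in all 4 genes, so r mostly restates that difference, and the points share their libraries and scaling. Within the genotypes, as deviations from the group means, r was 0.722 for Dyrk3, 0.803 for Sulf1 and 0.285 for Wdfy1. The genes were picked over the same libraries, and the spread of Atp1b1 within each genotype was little more than that of counting. Nothing is therefore read from these values.

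All 3 were higher in KO, a direction that their choice by likeness to Atp1b1 fixes, so their levels are a description with no test. Dyrk3 stood at 13.62 ± 0.736 CPM in floxed and 17.39 ± 0.816 in KO (SD, n = 4). Wdfy1 stood at 19.23 ± 0.373 and 23.82 ± 0.524 CPM, with 6.99% of its reads shared with another gene. Sulf1 stood at 12.21 ± 2.45 and 21.24 ± 0.288 CPM. In floxed replicate 4, Sulf1 reached 15.57 CPM against 10.29 to 12.48 in the other floxed libraries, while Atp1b1 at 34.57 CPM was only slightly above the 33.86 CPM of replicate 2.

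**Figure D5:**
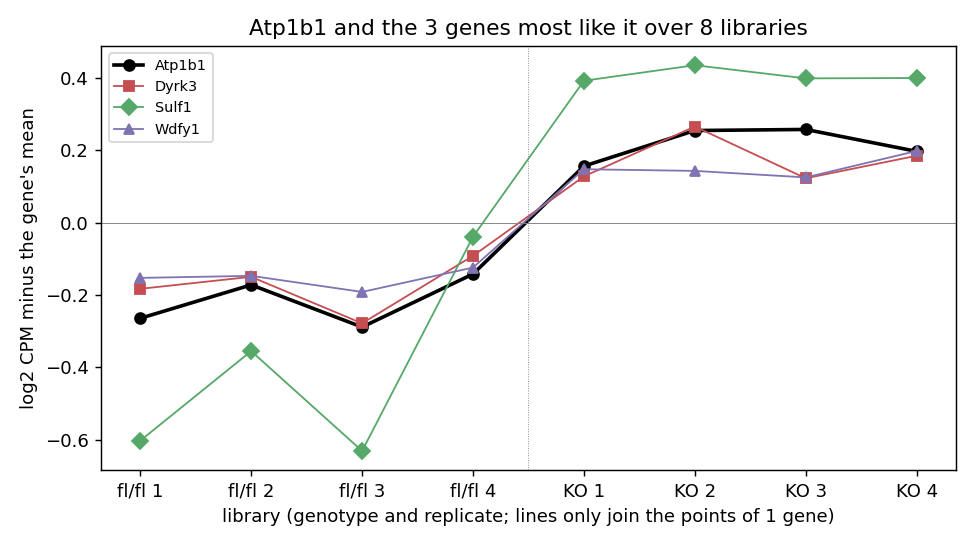
Log2 CPM of Atp1b1, Dyrk3, Sulf1 and Wdfy1 in each library minus the mean of the gene over the 8 libraries (y axis), with the libraries by genotype and replicate on the x axis. All 4 genes lie below 0 in the 4 floxed libraries and above 0 in the 4 KO libraries, and Sulf1 has the widest range.

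The genes with the most opposite pattern, a group added with the values known, were Qsox1 (r = -0.994), Adss (-0.984) and Dpt (-0.978), and their lower levels in KO are likewise fixed by that choice. Qsox1, a secreted oxidase that makes disulfides, stood at 56.72 ± 2.72 CPM in floxed and 43.72 ± 0.438 in KO (SD, n = 4), with 15.2% of its reads shared with another gene. Adss, an enzyme of AMP synthesis, stood at 153.8 ± 3.12 and 138.1 ± 1.22 CPM. Within the genotypes r was -0.89 for Qsox1, -0.722 for Adss and -0.53 for Dpt. The same libraries picked these genes, so nothing is read from these values either.

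Over whole libraries, depth was mostly higher in KO. The groups overlapped in depth only because KO replicate 4 lay below floxed replicate 1, and the remaining KO libraries were deeper than every floxed library. The unmapped share, the share of reads on no annotated gene and the TMM factors did not overlap between the groups. The lower limit of gene-assigned reads, used as the library size, was 17619387 to 19663030 in floxed and 19271004 to 25165289 in KO libraries (upper limit 18075244 to 20176895 and 19767078 to 25796705), and unmapped reads made up 1.039% to 1.193% and 1.442% to 1.575% of all reads. Reads on no annotated gene made up 4.298% to 4.343% in floxed and 3.928% to 4.139% in KO libraries. The TMM factors were 0.9804 to 0.9955 in floxed and 1.004 to 1.02 in KO libraries. The labels give no batch, so a batch that follows genotype cannot be told apart from it. Of 68 listed markers of stellate and other liver cells, 3 are in the rows. The cholangiocyte gene Pkhd1 had 0 reads in 7 libraries and the hepatocyte gene Serpinc1 stood at 0.2863 to 0.6623 CPM in any library. Cd34, of the portal fibroblast and mesothelium list, stood at 79.38 to 86.24 CPM in floxed and 83.41 to 87.31 CPM in KO. The part of other cell types in the Atp1b1 difference was not tested. Without floxed replicate 4, which stood apart from the other floxed libraries over all genes (chi-square divided by its degrees of freedom 3.37 to 3.47, and 1.39 to 1.86 among the others), the log2 fold change of Atp1b1 was 0.46.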

How the data were processed

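RNA of 8 stellate cell libraries was sequenced from poly(A) libraries. The authors deposited whole-number read counts per gene in the layout of STAR's gene counter, with an unstranded column and 1 column per strand. Builds GRCm38 and GRCm39 and the tools STAR 2.7.10a, fastp and DESeq2 1.38.0 are listed in the submitters' processing notes, without their roles. Which annotation was counted is not given in the sources used. Coordinates and symbols were taken from GENCODE M21 (GRCm38), promoter sequence from RefSeq (GRCm38.p6; 1 of 1 gene matched).

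Each table used here has 1933 to 1943 genes, and 7 incomplete last lines were left out. Rows cover part of each library, so the library size was the lower limit of gene-assigned reads derived from the summary rows. Either-strand counts were filtered (filterByExpr), TMM-scaled and tested in R 4.3.3 with edgeR 4.0.16 (quasi-likelihood F test, Benjamini-Hochberg over 420 genes, threshold 0.05); limma 3.58.1 and DESeq2 1.42.0 served alternatives. The SE was taken from the F statistic. The fit was tested on simulated data. The correlations used log2 CPM with a prior count of 2. No 2 libraries of a group agreed within sampling noise (largest chi-square p = 3.68e-07). Chi-square divided by its degrees of freedom was 1.38 to 1.79 among KO libraries. The common coefficient of variation beyond counting error was 2.53% over the tested genes. Whether this is spread between mice was not tested.

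The members, lists and tests were chosen with earlier results of these data known. Named were every subunit with a row, listed pump subunits that passed the filter (none), of each other list up to 5 called genes of at least 5 CPM (none), and the 3 genes most correlated with Atp1b1. Shares of the beta subunits were planned and not computed, since 1 subunit has a row. The strand-sum alternative, the neighbours and the transporter symbols were chosen after seeing the data.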

Additional observations from a re-analysis of the deposited data

How the results depend on the processing

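The log2 fold change of Atp1b1 was 0.37 to 0.485 over 19 alternatives, and with 1 library left out it was 0.41 to 0.46. The alternative with a threshold of 0.01 is the same fit and could not move this value. Atp1b1 stayed past the threshold in each alternative, but it was chosen with this contrast known in the same libraries. Nothing is therefore read from that. The count of called genes, 158, became 108 to 191. The higher and lower calls, 77 and 81, became 120 and 52 with upper-quartile scaling and 100 and 65 with library totals alone. The replicate numbers do not pair the libraries (correlations of deviations -0.164 to 0.13; 0 of 4 numbers matched best), and with them as a replicate block Atp1b1 stood at 0.43 and 150 genes were called. Of the other genes named, 2 that were not called changed sign. Slc41a1 was 0.010 with library totals only, 0.029 with upper-quartile scaling and -0.043 to 0.0034 with 1 library left out (highest without KO replicate 2), and Slc19a2 was 0.0042 with upper-quartile scaling. Sgk3 has no value with a minimum of 5 CPM. The alternatives for shares of the beta subunits were not run. Sgk3 rests on 23 to 42 reads per library, which limits its precision.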
